A study of Mus musculus with 24 samples.

Results

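Tumour-infiltrating CD8+ T cells of mice given an antibody against JAML were compared directly with those of mice given an antibody against PD-1. The members are the 4 anti-JAML and the 4 anti-PD-1 libraries sorted as CD8+ T cells, 8 of the 24 libraries of the series, and every gene of the count table that passed a filter on low counts was tested between them. All mice carried B16F10-OVA tumours, a mouse melanoma line made to express the model antigen ovalbumin. The 3 treatments were 200 µg of anti-JAML antibody, 200 µg of anti-PD-1 antibody and 200 µg of an isotype control antibody, and tumours were taken 1 day later. Neither the strain nor the age and sex of the mice is given in the sources used here, no group lacked an antibody injection, and the labels do not say whether each library came from its own mouse, so a p-value here weighs a difference against library-to-library spread that may be technical. Each library held polyadenylated RNA of fewer than 400 sorted cells, amplified by Smart-seq2, a full-length protocol for small cell numbers. The 4 isotype CD8 libraries shared the estimate of the spread and are given last as a baseline, and the 8 anti-JAML and anti-PD-1 libraries of CD4+FOXP3+ regulatory T (Treg) cells from the same experiment are set beside the CD8 contrast.

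JAML, encoded by Jaml (also named Amica1), is an immunoglobulin-family adhesion receptor that binds the coxsackie and adenovirus receptor on epithelial cells and can costimulate T cells. PD-1, encoded by Pdcd1, is an inhibitory receptor that recruits phosphatases to the antigen receptor complex, and antibodies that block it release cytotoxic function. CD8 T cells in tumours span a range that runs from quiescent, self-renewing cells that depend on the transcription factor TCF-1 to dividing, glycolytic cells that make granzymes and perforin and need a large protein-folding capacity.

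The 8 libraries held 11170918 to 18490887 counts. Anti-JAML libraries had 13257 to 14502 genes detected and anti-PD-1 libraries 14396 to 15356. Cd8a was between 1308 and 1701 CPM (here counts scaled to the library total) after anti-JAML and between 1414 and 1755 CPM after anti-PD-1, Foxp3, Ms4a1 and Ncr1 were at 0 in all 8, and Cd4 was above 0 in anti-PD-1 library 2 alone, at 0.117 CPM. Anti-JAML libraries 2 and 4 stood apart from the other CD8 libraries on the first 2 principal components. All 11 B-cell and plasma-cell markers together summed to 270.4, 1043, 315.1 and 679.7 CPM in anti-JAML libraries 1 to 4 and to 176.3 to 273.9 CPM after anti-PD-1, most of it Ighm and Igkc. Although Ncr1 was at 0, the 8 natural killer cell markers summed to 49.8, 152.3, 66.05 and 140.4 CPM in anti-JAML libraries 1 to 4. They summed to 25.1 to 69.3 CPM after anti-PD-1. Eomes made up most of the sums in anti-JAML libraries 2 and 4, at 112.9 and 112.5 CPM, and was at 14.2 to 33.7 CPM after anti-PD-1. Klrb1c was at 5.82 and 12.9 CPM in those libraries and at 0.0659 to 4.54 CPM after anti-PD-1. Fcer1g overlapped, at 10.04 to 29.2 CPM after anti-JAML and 9.81 to 32.9 CPM after anti-PD-1. Khdc1a and Klra4 were at 0 in all 8. The erythroid markers summed to 594.4 and 409 CPM in anti-JAML libraries 2 and 4. In the other 6 they reached at most 6.59 CPM, with 243.8 CPM in isotype library 3. The 18 macrophage and monocyte markers summed to 367.8, 834.3, 302.4 and 237 CPM in anti-JAML libraries 1 to 4. After anti-PD-1 they summed to 202.7 to 407.1 CPM. Of these, Lyz2 was at 491.9 CPM in anti-JAML library 2 and at 104.4 CPM in anti-PD-1 library 4. In anti-JAML library 2 Apoe and Csf1r were at 19.3 and 10.7 CPM, while C1qa, C1qb and C1qc were at 0. Mitochondrial transcripts took 6.89% of anti-JAML library 4 against 1.46% to 3.54% of the other 7. Melanoma markers summed to 34.05, 54.07, 23.76 and 119.6 CPM in anti-JAML libraries 1 to 4 and to 14.91 to 37.59 CPM after anti-PD-1. Dendritic cell markers summed to 393.3, 823.8, 495.6 and 732.4 CPM and to 204.9 to 574 CPM. Stroma and endothelium markers summed to 109.6 CPM in anti-JAML library 2, with Pecam1 at 108.6 CPM, and to 19.96 to 30.5 CPM after anti-PD-1. The part of these features in the gene results was not tested, so the gene lists below are given with and without anti-JAML libraries 2 and 4.

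The target genes themselves did not separate the groups. Jaml was at 23.7, 67.8, 14.5 and 24.6 CPM after anti-JAML and at 24.4, 44.2, 54.0 and 62.2 CPM after anti-PD-1 (all gene levels from here on are scaled by TMM factors). Pdcd1 was at 696.6, 649.1, 706.9 and 277.7 CPM after anti-JAML, against 786.3, 1425, 589.2 and 1128 CPM after anti-PD-1. Both ranges overlapped, with log2 differences of -0.50 ± 0.52 and -0.75 ± 0.31 (SE) and edgeR adjusted p of 0.846 and 0.418. In the isotype libraries Jaml was at 7.58, 7.31, 20.9 and 5.97 CPM.

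One gene passed the test. Nfil3, a basic leucine zipper transcription factor that represses genes with D-box elements and is known for its part in natural killer cell development and in the upkeep of inhibitory receptors on exhausted T cells, was at 24.3, 24.1, 26.7 and 16.3 CPM after anti-JAML and at 74.8, 94.9, 76.0 and 78.9 CPM after anti-PD-1. The highest anti-JAML library lay far below the lowest anti-PD-1 library, and the isotype libraries, at 36.2, 40.2, 34.7 and 39.7 CPM, lay between them without overlap. The gene lies on chromosome 13 (GENCODE M21 for mm10, chr13:52967209-52981073, minus strand). It fell by 1.83 ± 0.21 on the log2 scale (SE, n = 4 against 4; edgeR quasi-likelihood test, adjusted p = 0.0105), with means of 22.9 ± 4.5 CPM after anti-JAML and 81.2 ± 9.34 CPM after anti-PD-1 (SD). Set against isotype, with the isotype libraries shared by both differences, its log2 difference was -0.72 ± 0.21 after anti-JAML and 1.11 ± 0.21 after anti-PD-1. The size held between -1.56 and -1.92 under every alternative, but the call did not. The edgeR adjusted p was 0.259 when the isotype libraries were left out of the fit and 0.277 with genes detected as a covariate. It was 0.0829 with same-numbered libraries as blocks and 0.0567 without anti-JAML libraries 2 and 4. It was 0.0566 without anti-JAML library 1, 0.0656 without anti-PD-1 library 2, and 0.0612 without anti-PD-1 library 4.

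Nfil3 was 1 of 12648 genes tested, which is 0.00791%. At an unadjusted p under 0.05 the same test listed 643 genes as higher after anti-JAML (5.08%) and 618 as lower (4.89%), and the groups did not overlap for 338 genes in the higher direction (2.67%) and 399 in the lower (3.15%). These shares are the background for every count below. DESeq2 called 262 genes (2.07%), 154 higher and 108 lower, and limma voom called 8: Nfil3, Sdf2l1, Tubb4b and Gzmb on the lower side and Clk1, Arhgap15, Cd82 and Ypel3 on the higher. The median log2 difference over all genes was 0.02.

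**Figure D1:**
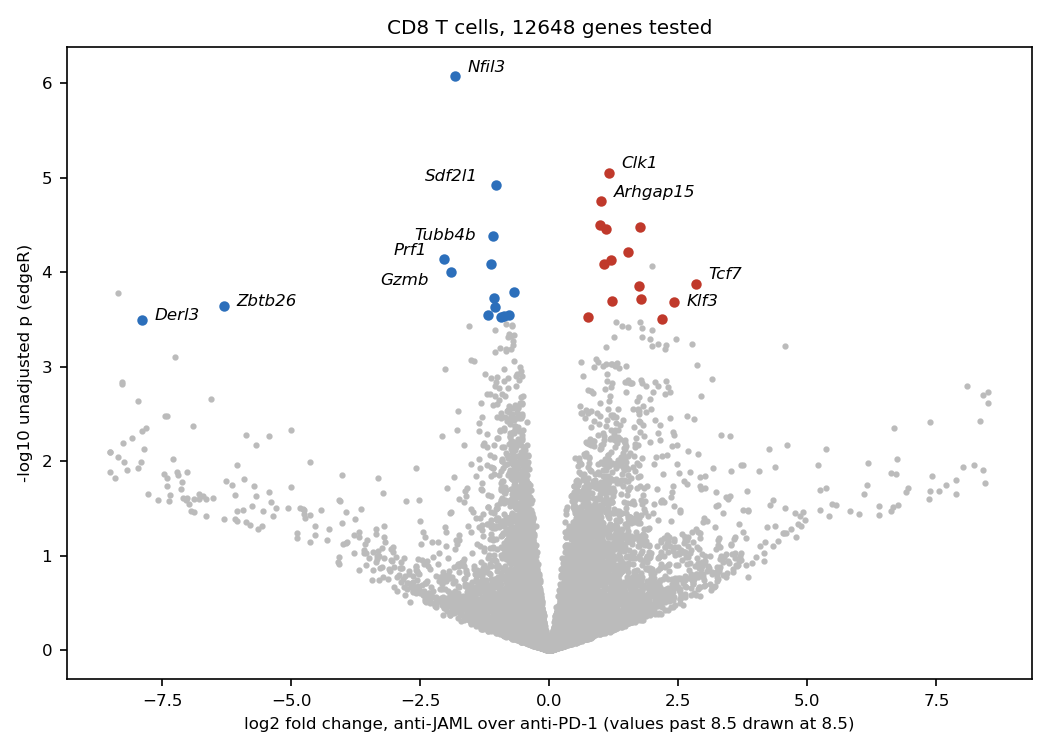
Log2 fold change of anti-JAML over anti-PD-1 in CD8 T cells (x axis) against -log10 of the unadjusted edgeR p (y axis) for 12648 genes, with the 15 named genes of smallest p in each direction coloured. Nfil3 stands highest on the y axis, followed by Clk1 and Sdf2l1.

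Clk1 and Arhgap15 had the smallest p on the higher side. Clk1, a kinase that phosphorylates SR splicing factors, was at 316.1, 313.9, 256.2 and 351.9 CPM after anti-JAML and at 136.9, 106.7, 167.8 and 145.8 CPM after anti-PD-1. Arhgap15, a GTPase-activating protein for Rac, was at 210.1, 196.0, 237.4 and 286.2 CPM after anti-JAML and at 118.4, 118.9, 117.7 and 106.9 CPM after anti-PD-1. Neither gene's groups overlapped, with log2 differences of 1.15 ± 0.17 and 1.01 ± 0.16 and edgeR adjusted p of 0.0505 and 0.0561, just outside the threshold. The list of CLK kinases and SR splicing factors had a median of 0.15 over 36 genes tested (0.12 without anti-JAML libraries 2 and 4, and 0.09 without anti-PD-1 library 1), with 4 higher and 1 lower at an unadjusted p under 0.05. Cd82, a tetraspanin, was at 510.5 to 798.3 CPM after anti-JAML and at 284.0 to 335.1 CPM after anti-PD-1. Gab3, a docking adaptor of cytokine receptor signalling, was at 62.1, 73.7, 48.9 and 43.1 CPM after anti-JAML, above the 18.1 to 31.0 CPM of the anti-PD-1 libraries and the isotype libraries, which reached 15.7 CPM at most. Its log2 difference from anti-PD-1 was 1.29 ± 0.27 (edgeR adjusted p = 0.119).

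**Figure D2:**
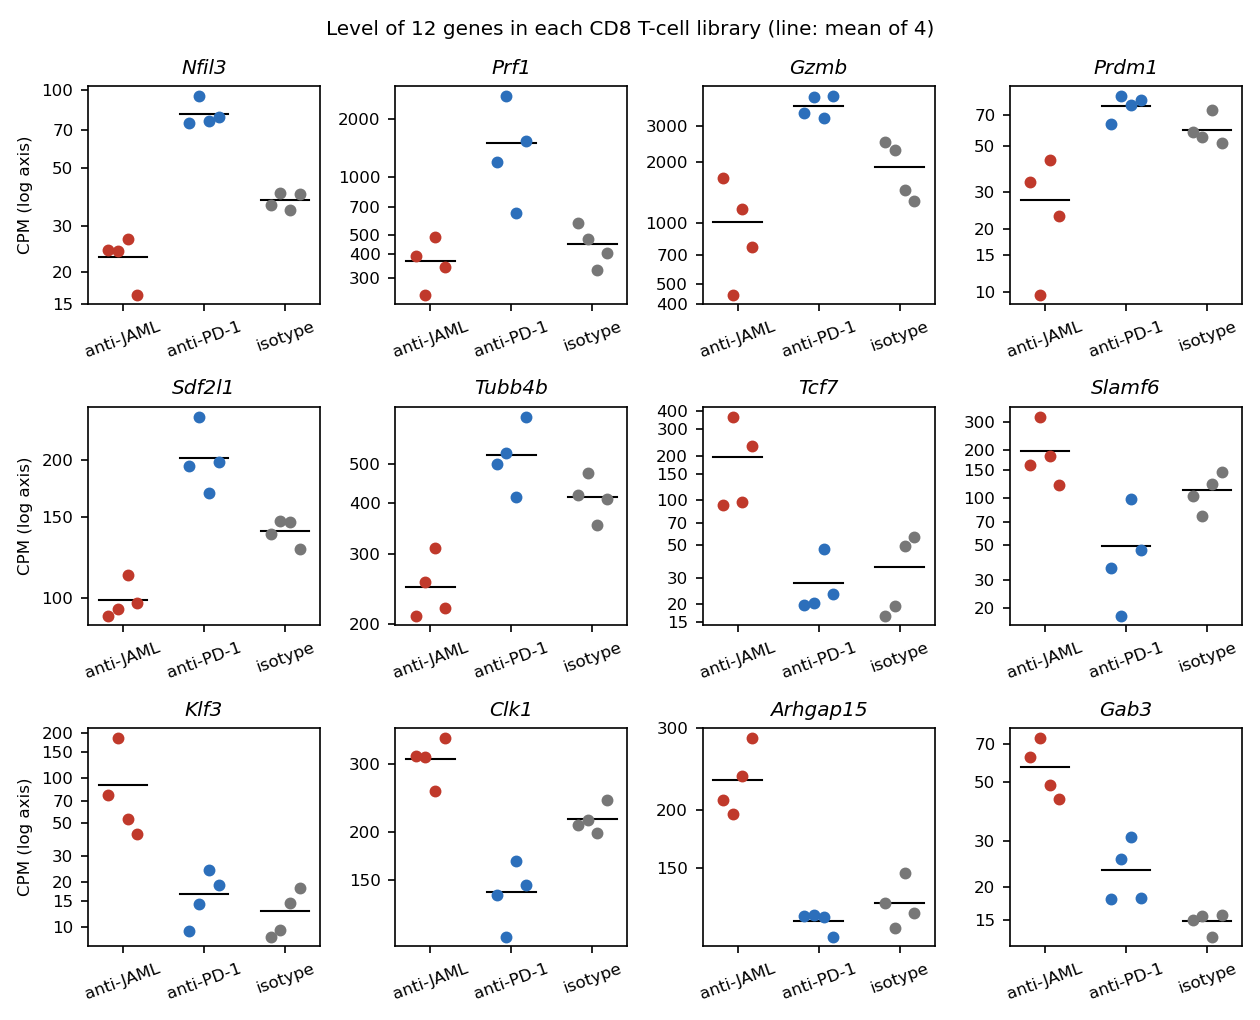
Level (CPM, log axis) of 12 genes in each CD8 T-cell library after anti-JAML, anti-PD-1 or isotype antibody; points are libraries and lines are means of 4. Nfil3, Prf1, Gzmb, Prdm1, Sdf2l1 and Tubb4b are lower in every anti-JAML library than in any anti-PD-1 library, and the other 6 are higher.

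Regulators of stem-like and memory T cells were higher after anti-JAML across the list. All 21 members were tested and all 21 had a positive log2 difference, 14 of them at an unadjusted p under 0.05 with none on the lower side, and 9 had groups that did not overlap. The median was 1.46, against 0.02 over all genes. Tcf7, which encodes TCF-1, was at 93.2, 364.0, 97.6 and 230.9 CPM after anti-JAML and at 19.6, 20.3, 46.6 and 23.3 CPM after anti-PD-1. The groups did not overlap, anti-JAML libraries 2 and 4 were the highest, and anti-PD-1 library 3 stood above the other anti-PD-1 libraries (log2 difference 2.84 ± 0.54, edgeR adjusted p = 0.104). Slamf6, a surface receptor that marks progenitor-like exhausted cells, was at 160.3, 323.3, 183.0 and 119.7 CPM after anti-JAML and at 35.9, 17.99, 97.4 and 46.4 CPM after anti-PD-1. Il7r, a receptor for a survival cytokine of memory T cells, was at 219.4, 265.5, 125.2 and 181.9 CPM after anti-JAML and at 28.6, 20.7, 105.2 and 48.1 CPM after anti-PD-1. In both genes anti-PD-1 library 3 came nearest to the anti-JAML range. Lef1, Id3, Foxo1 and Satb1, which act with Tcf7 in naive and memory T cells, had log2 differences of 2.11, 1.82, 1.46 and 1.57. Cd27 and Xcl1 were the nearest to no difference, at 0.17 and 0.09.

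Genes of quiescence and growth arrest lay on the same side. Of 24 members tested, 21 had a positive log2 difference, 15 had an unadjusted p under 0.05 and 14 had groups that did not overlap, all on the higher side, with a median of 1.23. Klf3, a transcriptional repressor of the Krüppel-like family, was at 76.6, 185.6, 53.5 and 42.0 CPM after anti-JAML and at 9.38, 14.3, 24.1 and 19.3 CPM after anti-PD-1. Btg1, an antiproliferative protein that recruits deadenylases and keeps naive T cells quiescent, was at 431.1, 710.7, 442.0 and 564.2 CPM after anti-JAML and at 139.8, 233.9, 279.2 and 275.7 CPM after anti-PD-1. Both genes separated the groups in every library. Tsc22d3, a glucocorticoid-induced leucine zipper protein, was at 173.1, 341.5, 89.9 and 163.7 CPM after anti-JAML, above the 29.1 to 74.2 CPM after anti-PD-1. Hbp1, a repressor of cell cycle genes that is not on the list, was at 60.1 to 105.0 CPM after anti-JAML and at 24.2 to 34.6 CPM after anti-PD-1. Cdkn1b, an inhibitor of cyclin-dependent kinases, Klf2, which sustains quiescence and egress, and Pik3ip1, an inhibitor of phosphoinositide kinase signalling, had log2 differences of 1.79, 2.25 and 2.05. Rb1, the retinoblastoma repressor of cell cycle entry, was the furthest on the other side, at -0.81 ± 0.56, with groups that overlapped.

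Both medians were smaller without anti-JAML libraries 2 and 4, which held the most immunoglobulin and erythroid RNA. The stem and memory median was then 0.97, with 20 of 21 members positive and 8 at an unadjusted p under 0.05, and the quiescence median 0.74, with 18 of 25 positive and 13 at that p. In that fit 3.75% of 14173 genes were higher at that p and 5.55% were lower. Tcf7 had a log2 difference of 1.79 and Klf3 of 1.95 in it. With all libraries and genes detected as a covariate, the quiescence median was 0.77. Klf2 is also expressed by B cells and naive T cells, and in bulk libraries fewer cells of a type and less RNA per cell cannot be told apart.

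Receptors for homing and costimulation had a wider spread. Of 16 chemokine receptor and egress genes tested, 11 had a positive log2 difference, 7 were higher and 2 lower at an unadjusted p under 0.05, and 4 had higher groups that did not overlap (median 0.94, and 0.40 without anti-JAML libraries 2 and 4). Without anti-JAML library 2 alone the median was 0.37, and without anti-PD-1 library 3 it was 1.67. S1pr1, the receptor that draws T cells out of tissue into lymph and blood, was at 193.1, 410.2, 140.8 and 156.0 CPM after anti-JAML and at 23.6, 39.5, 90.0 and 37.3 CPM after anti-PD-1. Cxcr3, which guides effector and memory cells to interferon-induced chemokines, was at 159.7 to 260.7 CPM after anti-JAML and at 67.4, 72.0, 146.9 and 59.7 CPM after anti-PD-1. Neither gene's groups overlapped, although anti-PD-1 library 3 reached close to the lowest anti-JAML library. The 2 lower members were S1pr5, an egress receptor of the same family, with 0 counts over the anti-JAML and 146 over the anti-PD-1 libraries, and Cx3cr1, the fractalkine receptor of effector cells, at 11.1 ± 8.84 CPM after anti-JAML and 34.8 ± 15.7 CPM after anti-PD-1 (SD, n = 4 each). The groups overlapped in both. The integrin chain Itgb7 rested on anti-JAML library 2: it was at 33.1, 451.7, 29.4 and 73.1 CPM after anti-JAML and at 20.4 to 41.9 CPM after anti-PD-1, and its log2 difference of 2.41 was 0.17 without anti-JAML libraries 2 and 4.

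Of 19 costimulators and receptors of the tumour necrosis factor family, 14 had a positive log2 difference, 5 were higher and 1 lower at an unadjusted p under 0.05, and the median was 0.70, or 0.77 without anti-JAML libraries 2 and 4. Cd7, an immunoglobulin-family receptor of T and natural killer cells, was at 132.2, 119.4, 78.4 and 119.6 CPM after anti-JAML and at 41.3, 31.1, 67.9 and 16.5 CPM after anti-PD-1, while the isotype libraries lay at 79.0 to 166.0 CPM. Icos, a costimulator of the CD28 family, had a log2 difference of 0.82 and Fas, the death receptor, one of 1.25. Tnfrsf9, which encodes the activation-induced costimulator 4-1BB, went the other way, at -0.88.

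Cytotoxic effector genes were lower after anti-JAML at the head of their list but not throughout it. Prf1, which encodes the pore-forming protein perforin, was at 386.4, 244.7, 488.1 and 338.4 CPM after anti-JAML and at 1191, 2643, 649.1 and 1537 CPM after anti-PD-1. Gzmb, the granzyme that cleaves caspases in target cells, was at 1661, 444.7, 1173 and 763.2 CPM after anti-JAML and at 3475, 4153, 3289 and 4223 CPM after anti-PD-1. Neither gene's groups overlapped, with log2 differences of -2.05 ± 0.36 and -1.91 ± 0.35 and edgeR adjusted p of 0.077 and 0.0838. In the isotype libraries Prf1 was at 328.0 to 574.5 CPM, inside and just above the anti-JAML range, and Gzmb at 1285 to 2515 CPM, between the other groups' means. Of the 22 granzyme, perforin and granule genes tested, 4 were lower and 1 higher at an unadjusted p under 0.05 (median -0.31, and -0.05 without anti-JAML libraries 2 and 4, where 2 were lower and 1 higher). The median was -0.20, -0.49 and -0.21 without anti-JAML library 2, 3 or 4, and 0.12 with genes detected as a covariate. Gzma, Nkg7 and Srgn had log2 differences of -0.51, -0.22 and 0.09.

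Transcription factors of effector differentiation and exhaustion had a median of -0.18 over 24 genes tested, with 3 lower and 1 higher at an unadjusted p under 0.05, and -0.18 with 5 lower and 1 higher without anti-JAML libraries 2 and 4. The median was -0.27 without anti-PD-1 library 1, 0.04 without anti-PD-1 library 2, -0.12 without anti-JAML library 4, and 0.05 with genes detected as a covariate. Prdm1, which encodes BLIMP-1, a repressor of memory genes, was at 33.6, 9.68, 43.0 and 23.2 CPM after anti-JAML and at 63.8, 86.8, 78.4 and 83.0 CPM after anti-PD-1, with no overlap (log2 difference -1.51 ± 0.35, edgeR adjusted p = 0.155). Irf8, an interferon regulatory factor that CD8 effector cells also express, was at 112.6, 95.8, 160.9 and 36.3 CPM after anti-JAML and at 170.8 to 388.4 CPM after anti-PD-1. The third gene on the lower side was Nfil3 itself. Runx3 and Batf, factors of effector and resident cells, had log2 differences of -0.06 and -0.01. Of 21 inhibitory receptors, 5 were lower at an unadjusted p under 0.05 (Cd5, Entpd1, Havcr2, Pdcd1 and Lag3), none was higher and none had groups that did not overlap. Without anti-JAML libraries 2 and 4, 2 were lower and 1 higher, and the median was -0.11, against -0.26 with all libraries. That median was -0.11 without anti-PD-1 library 2, -0.41 and -0.13 without anti-JAML library 3 or 4, and 0.04 with genes detected as a covariate. The log2 differences of those 5 with all libraries ran from -0.75 to -1.20, while Ctla4 and Tigit were at 0.05 and -0.26. Ifng, the cytokine interferon gamma, had a log2 difference of -1.35 and Ltb, which encodes lymphotoxin beta, one of 1.26. The effector cytokine and chemokine list had no common direction, with 12 positive and 8 negative of 20 tested. At an unadjusted p under 0.05, 2 were higher and 3 lower. Its median was 0.18, or 0.59 without anti-JAML libraries 2 and 4.

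Most members of the glycolysis and hypoxia list, 25 of 34 tested, had a negative log2 difference. Of 34 tested, 16 were lower and 2 higher at an unadjusted p under 0.05, 12 had lower groups that did not overlap, and the median was -0.58, or -0.57 without anti-JAML libraries 2 and 4. Ldha, the lactate dehydrogenase subunit of fast glycolysis, was at 3070, 3285, 2863 and 2270 CPM after anti-JAML and at 4920, 5503, 4066 and 5273 CPM after anti-PD-1, with 3289 to 3853 CPM in the isotype libraries. Tpi1, triosephosphate isomerase, was at 686.5 to 1196 CPM after anti-JAML and at 1485 to 2137 CPM after anti-PD-1. The groups did not overlap in either gene. Log2 differences of the pathway's steps were -0.75 for Gpi1, -1.14 for Pfkp, -0.70 for Aldoa, -0.80 for Gapdh, -0.60 for Pgk1, -0.63 for Pgam1, -0.78 for Eno1 and -0.86 for Pkm. The glucose transporter Slc2a1 was at -0.86 and the lactate exporter Slc16a3 at -1.36, while Hk2, the inducible hexokinase, was at 0.10. Ldhb, the subunit that favours lactate oxidation, was at 1.47. Other members with hypoxia roles lay on both sides. Vegfa, Pdk1, Aldoc, Pfkfb3 and Egln3 were at 0.48, 0.48, 0.39, 0.37 and 0.29. Egln1, P4ha1 and Bnip3 were at -0.09, -0.24 and -1.18.

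Protein folding in the endoplasmic reticulum (ER) is adjusted by the unfolded protein response, in which the factors ATF6 and XBP1 act on promoters that carry an ER stress element. The promoters that follow are examples from the members of the list that carry a match to the element. The sequences are the 250 bases before and 50 bases after each gene's start from RefSeq on GRCm38.p6, 5′ to 3′ on the gene's strand, and capitals mark a match to the element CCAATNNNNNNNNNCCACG on either strand. Creld2, Pdia6 and Hspa5 are from the lower side of the list, and Canx, near no difference, is given for comparison.
Creld2 chr15:88819396-88819695 (plus strand): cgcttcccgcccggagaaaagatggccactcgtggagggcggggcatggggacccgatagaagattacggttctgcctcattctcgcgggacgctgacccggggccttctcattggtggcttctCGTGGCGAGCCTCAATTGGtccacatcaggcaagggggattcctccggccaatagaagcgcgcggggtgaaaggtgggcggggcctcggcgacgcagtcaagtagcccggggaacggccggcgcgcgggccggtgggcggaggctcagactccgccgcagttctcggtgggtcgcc
Pdia6 chr12:17266339-17266638 (plus strand): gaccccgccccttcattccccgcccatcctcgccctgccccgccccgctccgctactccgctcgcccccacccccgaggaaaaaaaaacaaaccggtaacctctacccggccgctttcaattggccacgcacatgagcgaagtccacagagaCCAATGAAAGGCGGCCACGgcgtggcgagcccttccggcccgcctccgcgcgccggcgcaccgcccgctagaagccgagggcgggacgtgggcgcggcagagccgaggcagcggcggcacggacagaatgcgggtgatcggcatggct
Hspa5 chr2:34771840-34772139 (plus strand): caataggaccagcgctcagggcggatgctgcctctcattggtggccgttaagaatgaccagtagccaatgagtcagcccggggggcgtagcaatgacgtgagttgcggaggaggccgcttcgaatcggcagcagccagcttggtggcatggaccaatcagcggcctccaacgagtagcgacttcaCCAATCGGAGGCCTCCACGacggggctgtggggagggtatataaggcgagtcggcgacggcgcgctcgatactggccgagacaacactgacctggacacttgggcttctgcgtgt
Canx chr11:50325624-50325923 (minus strand): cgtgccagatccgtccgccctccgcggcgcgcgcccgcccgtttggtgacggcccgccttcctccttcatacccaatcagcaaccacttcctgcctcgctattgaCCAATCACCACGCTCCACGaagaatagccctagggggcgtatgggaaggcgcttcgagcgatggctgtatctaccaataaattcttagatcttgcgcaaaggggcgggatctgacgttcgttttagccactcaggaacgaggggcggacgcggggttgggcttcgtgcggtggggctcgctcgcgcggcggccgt

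Of 42 unfolded protein response and ER folding genes tested, 13 were lower and none higher at an unadjusted p under 0.05, 11 had lower groups that did not overlap, and the median was -0.22. It was -0.38 without anti-JAML libraries 2 and 4, -0.39 with voom and -0.13 without anti-PD-1 library 2. Sdf2l1, a cofactor of ER chaperones, was at 91.6, 94.5, 112.5 and 97.7 CPM after anti-JAML and at 193.9, 248.7, 169.3 and 198.0 CPM after anti-PD-1. The isotype libraries lay between, at 127.8 to 147.6 CPM, and no 2 of the 3 groups overlapped (log2 difference -1.03 ± 0.15, edgeR adjusted p = 0.0505). Creld2, an ER stress-induced protein, was at 73.3 to 132.3 CPM after anti-JAML and at 171.9 to 269.4 CPM after anti-PD-1, and Pdia6, a protein disulfide isomerase, at 239.1 to 369.9 CPM after anti-JAML and at 472.7 to 638.5 CPM after anti-PD-1. Hspa5, the main ER chaperone BiP, Calr, the lectin chaperone calreticulin, and Hsp90b1, the ER member of the HSP90 family, had log2 differences of -0.87, -0.56 and -0.74. Canx, the membrane lectin chaperone calnexin, was at -0.04. Derl3, of ER-associated degradation, had 0 counts over the anti-JAML libraries and 129 over the anti-PD-1 libraries, at least 37.1-fold lower against a floor of 3 counts over the group. The element was found in the promoters of 9 of the 36 list members with a RefSeq promoter (25%), and in 16 of 9177 tested genes (0.174%). Its 9 holders were Creld2, Pdia6, Derl3, Hsp90b1, Hspa5 and Calr, each at an unadjusted p under 0.05 on the lower side, and Syvn1, Canx and Dnajc3, which had log2 differences of 0.42, -0.04 and -0.02. Other lower members, Sdf2l1 and Dnajb11 among them, were not among the holders. Only 36 of the 42 had a promoter to search, so a member can be missing from the holders for lack of one. A match describes the letters in this window and is not a measured binding site.

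Cytosolic chaperones and the proteasome were lower after anti-JAML as well. Of 29 heat shock chaperone genes, 11 were lower and none higher at an unadjusted p under 0.05. The median was -0.35, -0.39 without anti-JAML libraries 2 and 4, and -0.23 with genes detected as a covariate. Cct7, a subunit of the chaperonin that folds actin and tubulin, was at 442.6 to 740.7 CPM after anti-JAML and at 920.1 to 1101 CPM after anti-PD-1. Tubb4b, a beta tubulin, was at 210.3, 254.1, 309.2 and 219.7 CPM after anti-JAML and at 501.2, 533.4, 415.2 and 656.7 CPM after anti-PD-1, with no overlap (log2 difference -1.08 ± 0.18, edgeR adjusted p = 0.0644). Of 20 tubulins and microtubule regulators, 7 were lower and none higher at that unadjusted p (median -0.32, -0.31 without anti-JAML libraries 2 and 4, and -0.50 without anti-PD-1 library 3). All 36 proteasome genes had a negative log2 difference, 9 of them at that p (median -0.32). Without anti-JAML libraries 2 and 4 the proteasome median was -0.14, with 30 of 36 negative, and without anti-JAML library 2 alone it was -0.20.

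Cell cycle genes were lower after anti-JAML. Of 52 mitosis and spindle genes, 22 were lower and none higher at an unadjusted p under 0.05, 11 had lower groups that did not overlap, and the median was -0.49, or -0.46 without anti-JAML libraries 2 and 4. Aurka, a kinase of spindle assembly, was at 84.5, 66.9, 100.2 and 90.0 CPM after anti-JAML and at 138.7, 147.6, 133.4 and 178.9 CPM after anti-PD-1. Ccna2, the cyclin of S phase and entry into mitosis, was at 105.1 to 212.5 CPM after anti-JAML and at 284.2 to 363.2 CPM after anti-PD-1. Neither gene's groups overlapped, and the proliferation marker Mki67 had a log2 difference of -0.06. Of 54 replication genes, 11 were lower and none higher at that p (median -0.39). The median was -0.37 without anti-JAML libraries 2 and 4, -0.24 without anti-PD-1 library 2 and -0.17 with genes detected as a covariate. Ccne1, the cyclin of entry into S phase, was at 74.0 to 89.9 CPM after anti-JAML and at 120.4 to 147.9 CPM after anti-PD-1.

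**Figure D3:**
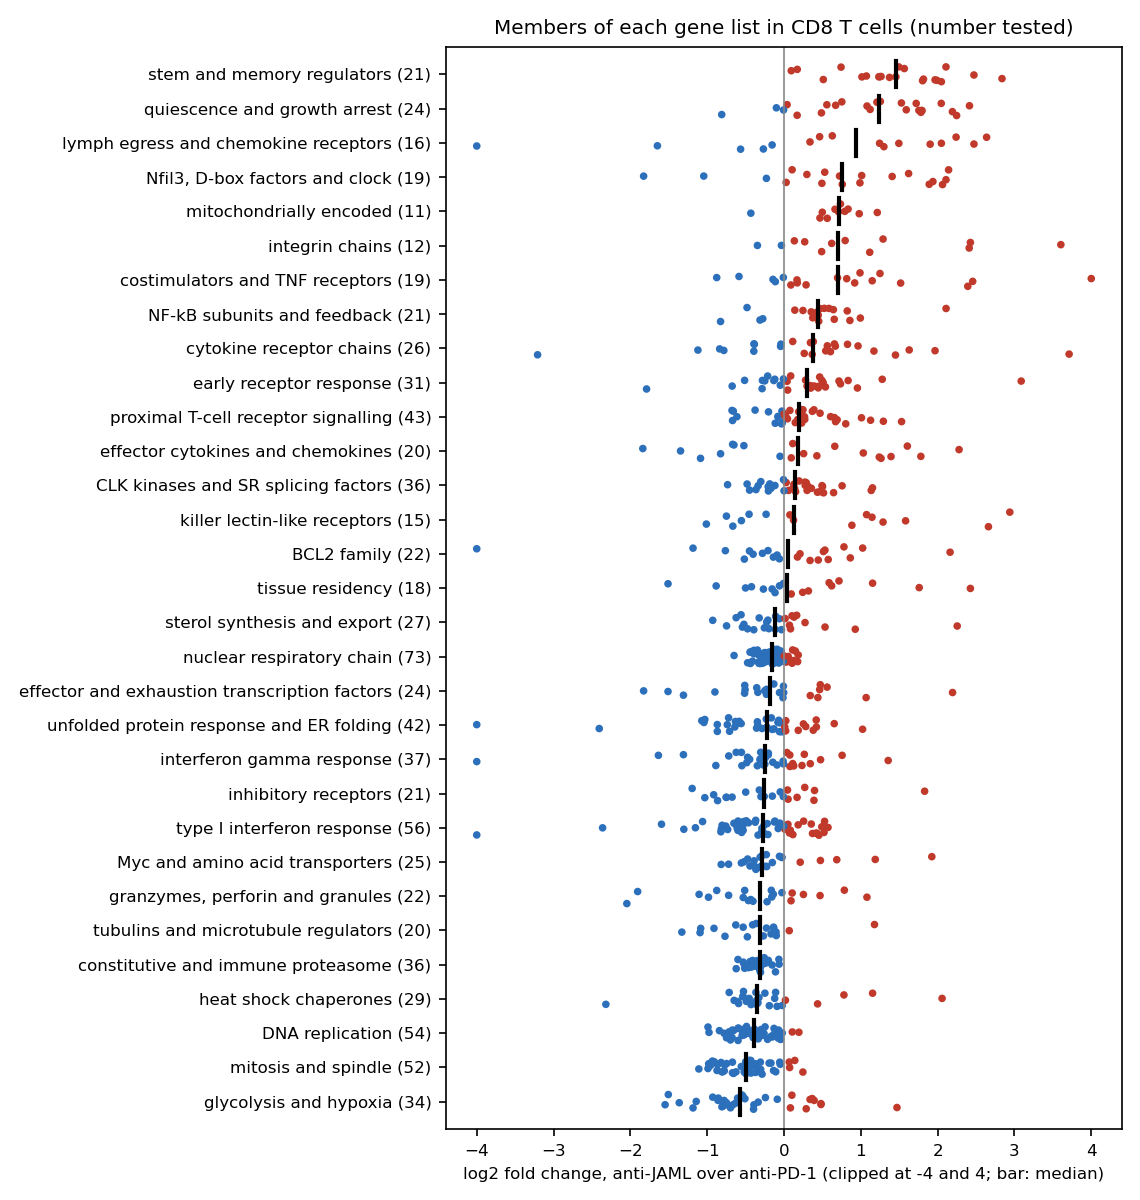
Log2 fold change of anti-JAML over anti-PD-1 (x axis, values past 4 drawn at 4) for each tested member of 31 gene lists in CD8 T cells, with the list's median as a bar and the number tested in parentheses. The stem and memory list has the highest median, 1.46, and glycolysis and hypoxia the lowest, -0.58.

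Type I interferon genes had a median of -0.28. Of 56 tested, 8 were lower and 2 higher at an unadjusted p under 0.05, whereas without anti-JAML libraries 2 and 4 there were 5 on each side of 57 tested, with a median of -0.30. Bst2, which tethers budding virions, was at 33.6, 51.4, 38.8 and 25.8 CPM after anti-JAML and at 81.4, 95.5, 59.2 and 75.8 CPM after anti-PD-1, and the isotype libraries overlapped the anti-JAML range at 38.1 to 51.1 CPM. Against isotype, with those libraries shared, the list's median log2 difference was 0.57 after anti-JAML and 0.77 after anti-PD-1. A pair of GAAA blocks 2 bases apart, on either strand, was found in 52.4% of the list's promoters and 3.9% of those of tested genes.

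The isotype libraries place the lists. The stem and memory median was 1.22 for anti-JAML over isotype and -0.08 for anti-PD-1 over isotype, and the quiescence median 0.88 and -0.07. Glycolysis and hypoxia had medians of -0.06 for anti-JAML over isotype and 0.38 for anti-PD-1 over isotype, and mitosis -0.40 and 0.14. Both differences of each pair use the same 4 isotype libraries. By level, as the mean log2 CPM of a list in a library, the stem and memory list was at 5.80 to 7 after anti-JAML, at 4.20 to 5.73 after anti-PD-1 and at 4.47 to 5.41 in isotype libraries, and the 5.73 belonged to anti-PD-1 library 3. Glycolysis and hypoxia was at 5.87 to 6.49 after anti-JAML, at 6.59 to 6.95 after anti-PD-1 and at 6.29 to 6.49 in isotype libraries.

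**Figure D4:**
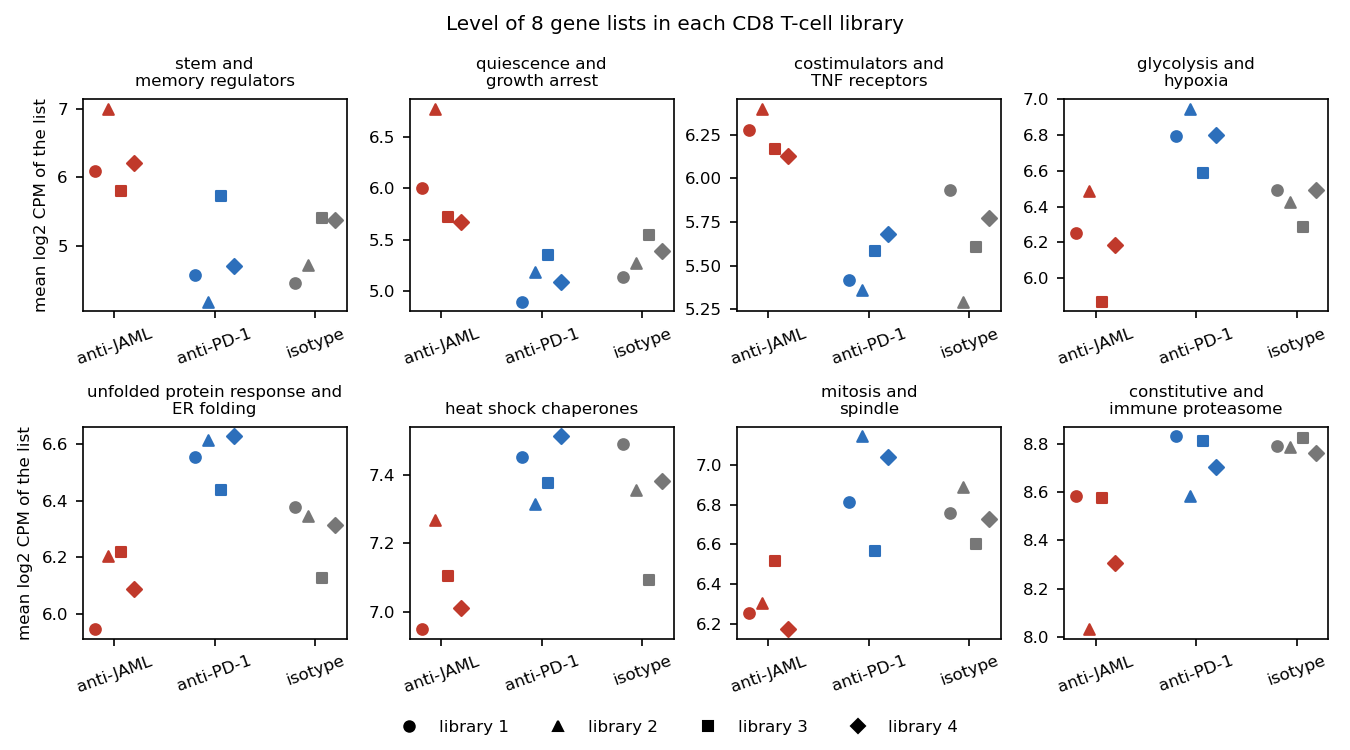
Mean log2 CPM (y axis) of 8 gene lists in each CD8 T-cell library after anti-JAML, anti-PD-1 or isotype antibody; marker shapes give the library number. These 8 were picked as the lists, of 31, whose levels did not overlap between anti-JAML and anti-PD-1; the other 23 overlapped, and anti-JAML library 2 has the highest stem and memory level, at 7.

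The same contrast in Treg cells was set beside the CD8 values and its difference tested with an interaction term. For Nfil3 the log2 difference was -0.48 ± 0.28 in Treg cells, where it was at 49.4 to 103.1 CPM after anti-JAML and at 70.005 to 124.3 CPM after anti-PD-1, and the CD8 minus Treg difference was -1.36 ± 0.34 (edgeR adjusted p = 0.835). No gene passed this test, 0 of 14591 (0%). At an unadjusted p under 0.05, which chance alone gives at a rate of 0.05, edgeR listed 821 of the 14591. DESeq2 called 138 of the same 14591. Clk1 had log2 differences of 1.15 in CD8 cells and 0.98 in Treg cells, Ypel3 of 1.76 and 1.57, and Sdf2l1 of -1.03 and -0.78. For Tcf7 they were 2.84 in CD8 cells and 0.39 in Treg cells, for Klf3 2.41 and 0.18, and for Gzmb -1.91 and -0.68, with interaction adjusted p of 0.835 in edgeR for each of these 3 genes. List medians in Treg cells were -0.60 for mitosis, -0.54 for replication, -0.38 for heat shock chaperones and -0.36 for tubulins. In CD8 cells these were -0.49, -0.39, -0.35 and -0.32. The unfolded protein response had -0.28 in Treg and -0.22 in CD8 cells. Stem and memory had 0.40 in Treg and 1.46 in CD8 cells, quiescence 0.32 and 1.23, and glycolysis and hypoxia -0.235 and -0.58. These differences between medians were not tested.

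**Figure D5:**
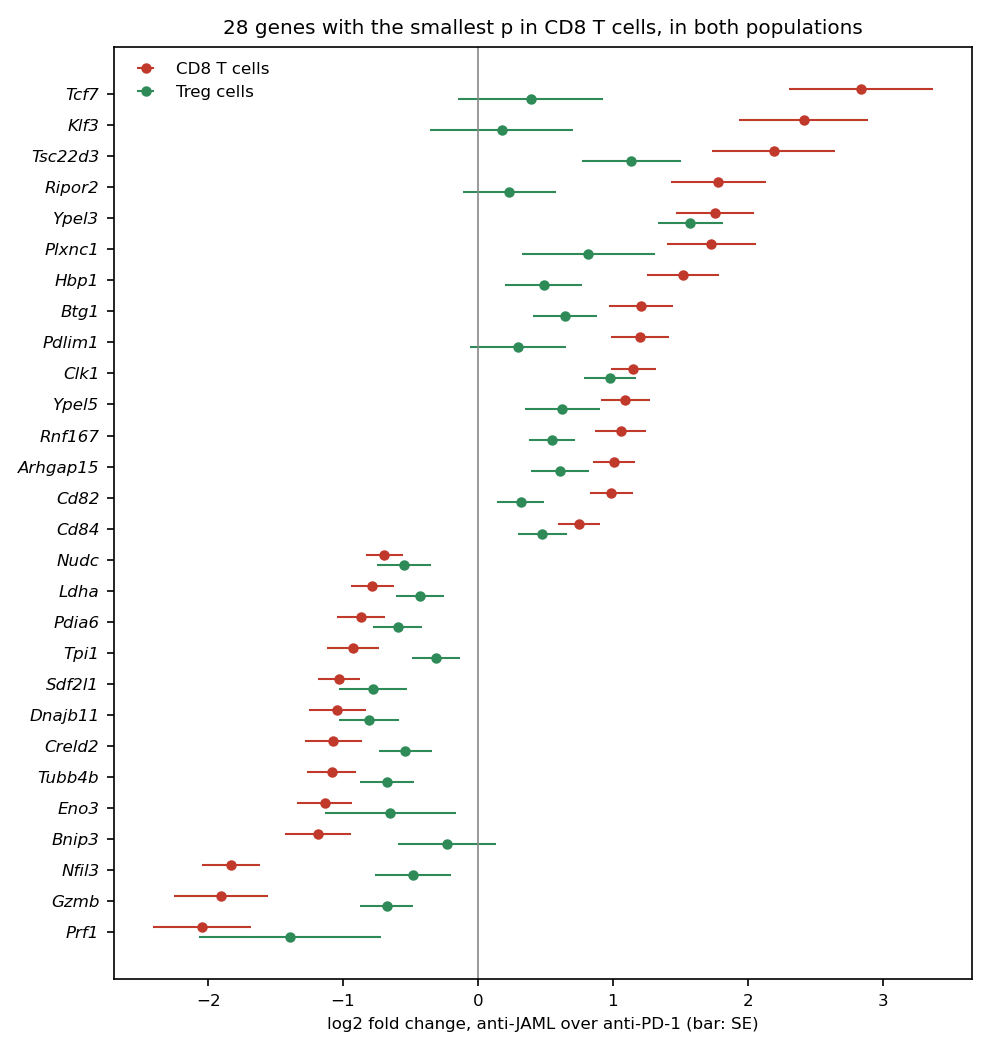
Log2 fold change of anti-JAML over anti-PD-1 with its SE (x axis) in CD8 T cells and in Treg cells for 28 of the 30 named genes with the smallest CD8 p; Derl3 was not tested in Treg cells and Zbtb26, with 1 count over the anti-JAML CD8 libraries, is left out. Clk1 and Ypel3 lie close together in both populations, and Tcf7, Klf3 and Nfil3 lie apart.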

How the data were processed

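The authors deposited a table of raw read counts per gene for 54957 genes, and the deposited counts were used as they stand. The submitters' processing notes list, without role or order, deepTools 3.3.1, SAMtools, STAR 2.7.3a, fastp 0.20.1 and the build mm10. What program counted the reads, on which annotation and with what strand setting is not stated there, so overlapping or antisense genes cannot be told apart. A deposited table of TPM was not used. The 12 CD8 libraries were fitted together in edgeR 4.0.16 (R 4.3.3; TMM scaling, filterByExpr at 10 counts, total at least 15, quasi-likelihood test, Benjamini-Hochberg adjustment at 0.05) and the anti-JAML and anti-PD-1 groups contrasted. The SE given with an edgeR log2 difference is the size of that difference divided by the square root of the test's F statistic. It was not estimated separately from the compared libraries. DESeq2 1.42.0 and voom of limma 3.58.1 were alternatives. The function was checked on simulated counts. Gene positions came from GENCODE M21, which held 98.64% of the gene IDs.

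Named genes were Jaml, Pdcd1, every called gene, the 15 genes of smallest p in each direction, without symbols of pseudogenes, clones or predicted genes, and the 3 members of smallest p in each of 31 lists, of which some are not reported here; other list members are named for their role after their values were seen. The members and lists were chosen with earlier results of these data known, so the lists carry counts and medians and no test. "Did not overlap" means that every library of one group lay above every library of the other. The reads were amplified with no molecular identifiers, so a floor covers counting error only. Deviations of same-numbered libraries from their group means had r of 0.07, 0.18, -0.01 and -0.03 over genes. Differently numbered pairs had r of -0.13 to 0.06. All were small, but 0.18 and 0.07 were the highest of all pairs, so these values do not settle whether libraries were paired. The main fit did not take the numbers as pairs, and a fit with same-numbered libraries as blocks (the replicate block) is given below.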

Additional observations from a re-analysis of the deposited data

Results flagged for a closer look

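Among the genes and lists whose values by library were examined, 21 of 249 groups of 4 held a library far from the other 3, where chance gives about 1 in 20. Anti-PD-1 library 3 was the one apart in 7 of them, each time on the high side: Tcf7 at 46.6 CPM, Cxcr3 at 146.9, Hbp1 at 34.6, Tsc22d3 at 74.2, Cd83 at 58.1, Ltb at 323.3, and the mean log2 CPM of the egress and chemokine receptor list at 4.89. Anti-JAML library 2 stood apart for the mean log2 CPM of the egress list at 5.64, of the cytokine receptor list at 5.85 and of the nuclear respiratory chain at 6.81, which was its low side. Anti-JAML library 4 stood apart for Pdcd1 at 277.7 CPM, Abcg1 at 90.4 CPM and the tubulin list at 5.59. Anti-JAML library 3 was the only one above 0 for Zbtb26, at 0.0609 CPM. Anti-PD-1 library 4 was low for Arhgap15 at 106.9 CPM. In isotype libraries the values apart were Jaml at 20.9 CPM, Derl3 at 6.05 CPM and the effector cytokine list at 6.41 in library 3, Tsc22d3 at 25.6 CPM in library 1, Dnajb11 at 226.6 CPM in library 2 and the clock list at 3.00 in library 4.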

How the results depend on the processing

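The count of genes called moved with the model. Against 1 gene in edgeR it was 262 with DESeq2, 8 with voom, 4 with RLE scaling, 9 of 22993 genes with no filter on low counts, and 0 in the fit on the 8 compared libraries only, with genes detected as a covariate, without anti-JAML libraries 2 and 4, and with the replicate block. Leaving out 1 library at a time gave 0 to 11 calls: 11 without anti-PD-1 library 3, 3 without anti-JAML library 2, and 0 without anti-PD-1 library 2, anti-PD-1 library 4 or anti-JAML library 1. Nfil3 had a log2 difference of -1.83 with 8 libraries only and with the replicate block (adjusted p = 0.0829), -1.56 with genes detected as a covariate (adjusted p = 0.277), and -1.68 without anti-JAML libraries 2 and 4; leaving out 1 library gave -1.92 to -1.70. Genes whose groups did not overlap numbered 737, and 936 to 1398 when 1 of the 8 libraries was left out, where fewer samples make separation easier. The CD8 minus Treg difference had 0 calls in edgeR and 138 in DESeq2. Over 2039 pairs of a named gene and an alternative, the sign turned in 3: Cyp51 at 0.0488 and mt-Cytb at -0.0782 with genes detected as a covariate, and Junb at -0.0948 without anti-JAML libraries 2 and 4. The median of 12 of the 31 lists turned sign under at least 1 alternative, 7 of them when 1 library was left out. Myc and amino acid transporters went from -0.28 in the main fit to 0.01 with genes detected as a covariate. Without anti-JAML libraries 2 and 4 they were at -0.38. Cytokine receptors went from 0.37 to -0.01 without anti-JAML libraries 2 and 4, and effector cytokines from 0.18 to -0.08 without anti-JAML library 3. The nuclear respiratory chain went from -0.16 to 0.05 without anti-JAML library 2 and to 0.08 without anti-JAML libraries 2 and 4. The BCL2 family was at 0.06 in the main fit and at -0.10 without anti-JAML libraries 2 and 4. It lay between -0.12 and 0.17 over all alternatives. The cause of these differences was not tested. Fewer than 400 cells and 4 libraries a group limit precision.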

Other observations

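Killer lectin-like receptors had a median log2 difference of 0.12 over 15 genes, which depended on the libraries: it was 0.74 without anti-PD-1 library 3, 0.72 without anti-PD-1 library 4, -0.12 without anti-JAML library 3, -0.16 with voom and 0.47 without anti-JAML libraries 2 and 4. Members lay on both sides. Klrk1, the activating receptor NKG2D, was at 557.3, 372.0, 614.7 and 559.5 CPM after anti-JAML and at 668.9, 949.5, 756.3 and 962.7 CPM after anti-PD-1 with no overlap, while Klrg1, an inhibitory receptor of effector cells, was at 13.4 to 28.7 CPM after anti-JAML and at 4.70 to 13.1 CPM after anti-PD-1. Abcg1, a sterol exporter, was at 47.2, 45.7, 44.0 and 90.4 CPM after anti-JAML and at 16.8, 5.52, 19.2 and 6.11 CPM after anti-PD-1, yet the sterol list as a whole had a median of -0.11 over 27 genes, -0.10 without anti-JAML libraries 2 and 4 and 0.02 without anti-PD-1 library 2. Tissue residency genes had a median of 0.04 over 18 genes, 0.18 without anti-JAML libraries 2 and 4, and from -0.24 with voom to 0.36 with genes detected as a covariate over all alternatives. The clock and D-box list that holds Nfil3 had a median of 0.76 over 19 genes, -0.06 without anti-JAML libraries 2 and 4, and 0.40 and 0.49 without library 2 or 4 alone. Of 11 mitochondrially encoded genes 10 were positive (median 0.71, 0.56 without anti-JAML libraries 2 and 4, and 0.38 without anti-JAML library 4). With genes detected as a covariate the median was 0.14. The gene mt-Cytb was at 12714, 8032, 12305 and 33518 CPM after anti-JAML and at 9679, 5885, 12112 and 6094 CPM after anti-PD-1, with anti-JAML library 4 far above the rest.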
